A study of Homo sapiens with 24 samples.

Results

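To find where H3K4me3 appeared with TGFβ and was missing again after PHF13 depletion, the H3K4me3 peaks of 6 libraries of PANC-1 cells were merged into 44697 regions. Of these, 1098 regions had a peak in both siControl+TGFβ lists and in none of the 2 siControl and 2 siPHF13+TGFβ lists. They are called TGFβ-only regions here, short for siControl+TGFβ only, since the siPHF13+TGFβ cells also received TGFβ. They were chosen on these measured H3K4me3 peaks, so their H3K4me3 is described without a test. PANC-1 is a line from a human pancreatic ductal carcinoma. The siControl cells received a control siRNA and no TGFβ, the siControl+TGFβ cells received the same siRNA and 10 ng/ml TGFβ for 48 h, and the siPHF13+TGFβ cells received an siRNA against PHF13 and the same TGFβ. All cells were thus transfected, and depletion without TGFβ was not analysed here. Each group had 2 chromatin immunoprecipitation sequencing libraries for each of the 3 marks H3K4me3, H3K27ac and H3K27me3. Nothing in the labels says that the 2 libraries came from separate cultures, so their spread may be technical.

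Trimethylation of histone H3 at lysine 4 (H3K4me3) is the mark of promoters, and at low level it is also found at active enhancers. H3K27ac marks active promoters and enhancers, while H3K27me3 is laid down by Polycomb complexes at repressed genes. PHF13 carries a PHD finger, a domain that binds H3K4me3, and TGFβ drives epithelial cells towards a mesenchymal state through SMAD proteins working with other factors such as AP-1.

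Groups were taken from the labels, and the peak names within the lists go against them. In lists labelled siPHF13+TGFβ the names carry NCT, the abbreviation of the study for siControl+TGFβ, and in lists labelled siControl+TGFβ they carry 3AT. If these 2 groups had been swapped, the 1098 regions would be those found only after PHF13 depletion with TGFβ. The H3K4me3 lists held 27869 to 39202 peaks, with the siControl+TGFβ lists the longest and siPHF13+TGFβ replicate 1 the shortest. The H3K27ac list of siPHF13+TGFβ replicate 1 held 6004 peaks against 19413 to 36104 in the other 5. For this library, the study's own peak number is larger than that of the deposited list. Since the lists hold peaks and not reads, depth is unknown. Of 15 ductal and epithelial marker genes, 12 or 13 had an H3K4me3 peak within 1 kb of a transcription start site (TSS) in each list, against 2 to 5 of 15 acinar and endocrine markers and 3 or 4 of 14 immune, endothelial and neural markers.

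The sequences below are 200-bp windows around the H3K4me3 summit in TGFβ-only regions, read from GRCh37 on the plus strand. They are shown because AP-1 motifs were present in a larger share of these windows than of the windows of other regions, as given further below. They are some of the windows of named regions that held an AP-1 match and in which the window itself, though not always the whole region, touched no annotated exon. The capitals mark the match (TGANTCA, where N is any base).
near PRKCE, chr2:45908973-45909172: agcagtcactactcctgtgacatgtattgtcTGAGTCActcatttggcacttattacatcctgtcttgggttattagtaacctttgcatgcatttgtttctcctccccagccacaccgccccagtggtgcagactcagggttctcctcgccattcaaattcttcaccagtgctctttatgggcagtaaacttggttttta
near PRKCE, chr2:46191817-46192016: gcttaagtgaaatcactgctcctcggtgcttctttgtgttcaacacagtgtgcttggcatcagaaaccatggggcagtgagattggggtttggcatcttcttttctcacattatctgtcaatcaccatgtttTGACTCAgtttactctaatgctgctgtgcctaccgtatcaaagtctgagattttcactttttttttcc
near PRKCE, chr2:46295221-46295420: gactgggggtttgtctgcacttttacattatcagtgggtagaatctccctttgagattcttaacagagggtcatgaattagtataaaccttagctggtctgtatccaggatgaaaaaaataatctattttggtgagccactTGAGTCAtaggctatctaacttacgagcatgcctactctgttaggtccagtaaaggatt
near LIMS1, chr2:109229271-109229470: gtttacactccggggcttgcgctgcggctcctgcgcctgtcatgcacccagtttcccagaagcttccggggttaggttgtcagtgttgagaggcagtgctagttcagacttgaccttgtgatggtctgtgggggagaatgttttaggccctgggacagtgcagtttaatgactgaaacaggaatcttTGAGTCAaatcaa
near HHAT, chr1:210547259-210547458: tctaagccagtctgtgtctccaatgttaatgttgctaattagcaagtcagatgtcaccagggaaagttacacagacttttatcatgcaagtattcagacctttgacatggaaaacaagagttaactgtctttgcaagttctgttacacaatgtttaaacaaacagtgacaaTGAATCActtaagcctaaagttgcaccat
near ZNF608, chr5:124006373-124006572: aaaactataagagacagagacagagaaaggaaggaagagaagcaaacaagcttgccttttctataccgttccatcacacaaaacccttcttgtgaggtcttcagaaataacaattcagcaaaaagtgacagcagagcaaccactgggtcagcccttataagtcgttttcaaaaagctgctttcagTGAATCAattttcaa
near NPAS4, chr11:66185952-66186151: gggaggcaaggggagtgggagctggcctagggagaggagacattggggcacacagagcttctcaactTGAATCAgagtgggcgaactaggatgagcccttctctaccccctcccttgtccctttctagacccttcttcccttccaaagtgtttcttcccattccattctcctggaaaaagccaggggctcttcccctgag
near CALCOCO1, chr12:54200439-54200638: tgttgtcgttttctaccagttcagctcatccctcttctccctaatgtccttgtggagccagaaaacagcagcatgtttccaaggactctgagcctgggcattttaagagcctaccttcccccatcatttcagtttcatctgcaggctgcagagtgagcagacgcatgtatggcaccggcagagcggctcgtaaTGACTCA
near BMERB1, chr16:15601231-15601430: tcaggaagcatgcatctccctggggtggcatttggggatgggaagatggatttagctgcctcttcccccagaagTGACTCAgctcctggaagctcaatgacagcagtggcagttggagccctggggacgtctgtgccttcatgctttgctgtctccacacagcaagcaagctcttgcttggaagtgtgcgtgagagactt

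All 3 regions nearest to PRKCE, which encodes a protein kinase C, held the AP-1 letters within 100 bp of their summit. LIMS1 encodes an adaptor that links integrins to the actin cytoskeleton.

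The 1098 TGFβ-only regions were 2.46% of all merged regions. By comparison, 56 regions had a peak in both siControl lists only and 30 in both siPHF13+TGFβ lists only. The siControl+TGFβ lists were also the longest, and the counts of 56 and 30 were not repeated with lists of equal length. Regions gained with TGFβ, with a peak in both siControl+TGFβ lists and neither siControl list, numbered 1625 (3.64% of all), and the TGFβ-only regions were 67.6% of them. Regions lost with depletion, with a peak in both siControl+TGFβ lists and neither siPHF13+TGFβ list, numbered 2554 (5.71% of all), and the TGFβ-only regions were 43.0% of them. By the rule, the TGFβ-only regions are a part of both of these sets, and nothing is read from the shares. The number of TGFβ-only regions was 318 when each H3K4me3 list was cut to the length of the shortest, and 586 with the strongest 50% of each list.

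The H3K4me3 peaks of TGFβ-only regions were narrow and weak. Their median width was 438.5 bp (165 to 1682 bp), against 1672 bp for the 21457 regions present in all 6 lists, and together they spanned 521.6 kb. The most similar sets were narrow too. The median width was 561 bp for regions gained with TGFβ and kept in a siPHF13+TGFβ list. It was 617 bp for regions lost with depletion and present in a siControl list. Each list was ranked by the −log10 of the deposited q-value, from 0 for the weakest peak to 100 for the strongest. The mean percentile over the 2 siControl+TGFβ lists had a median of 15.8 over TGFβ-only regions and of 70.8 over regions in all 6 lists. In the 2 similar sets it was 19.0 (gained and kept) and 20.7 (lost and present in siControl). In replicate 1, 72.5% of the peaks of TGFβ-only regions were among the weakest 25% of the list, and in replicate 2, 82.2%. Their median −log10 q was 5.15 in replicate 1 and 4.17 in replicate 2, where the medians of the whole lists were 18.7 and 13.8. Of the 1098 regions, 80 had a mean percentile over 30 and 5 had one over 50. Over these regions, the percentiles in the 2 replicates had a Spearman correlation of 0.281, given as a description since all regions come from the same 2 libraries.

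**Figure D1:**
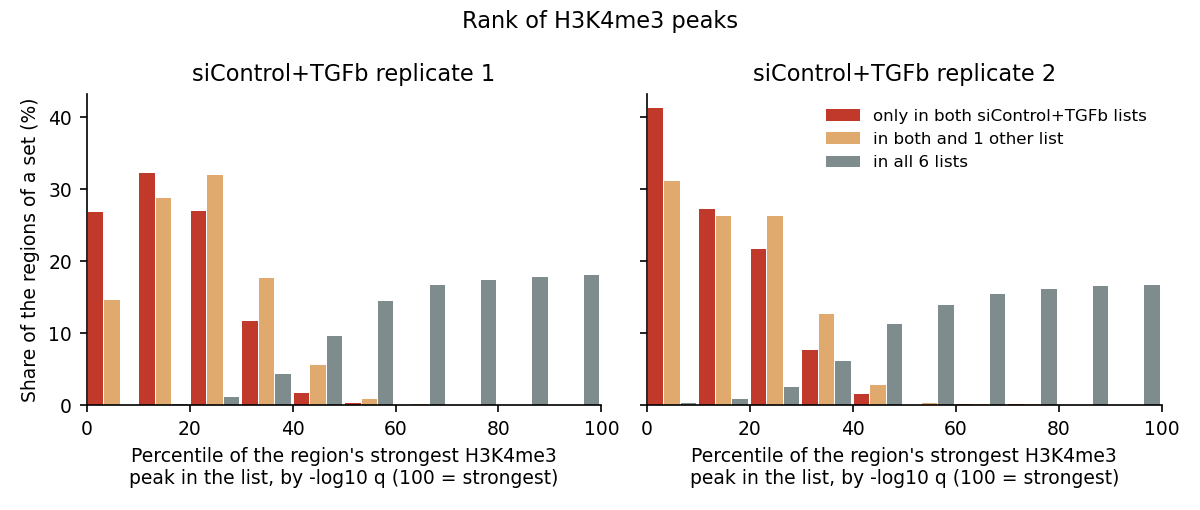
Percentile of the strongest H3K4me3 peak of each region within the siControl+TGFβ list of replicate 1 (left) and replicate 2 (right), in steps of 10, for the 1098 regions present only in both siControl+TGFβ lists, the 1667 regions with a peak in 1 further list and the 21457 regions in all 6 lists. Bars give the share of the regions of a set. The first set lies almost wholly below the 50th percentile, and 41.3% of it is in the lowest step in replicate 2.

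Just outside the rule, there were 1667 regions with a peak in both siControl+TGFβ lists and in exactly 1 of the other 4, and their median mean percentile was 19.7, close to that of TGFβ-only regions. The extra peak was in siControl replicate 2 for 1107 of them, in siPHF13+TGFβ replicate 2 for 453, in siControl replicate 1 for 79 and in siPHF13+TGFβ replicate 1 for 28. These extra peaks had a median −log10 q of 3.93, and 26.99% lay under 3. Just inside the rule, 13.2% of the peaks of TGFβ-only regions in replicate 1 and 24.4% in replicate 2 lay under the same value. Of the 1098 regions, 282 (25.7%) had an H3K4me3 peak of the other 4 lists within 1000 bp.

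TGFβ-only regions were mostly away from promoters. Within 5 kb of a protein-coding TSS lay 244 of them (22.2%, 95% Wilson interval 19.9 to 24.8%), against 44.3% of all other regions and 69.7% of regions in all 6 lists. The median distance to the nearest protein-coding TSS was 23545 bp. Introns held 43.99% of them and intergenic sequence 29.96%, while 10.6% touched an exon, 10.1% were within 1 kb of a protein-coding TSS and 5.37% within 1 kb of the TSS of a long noncoding RNA (lncRNA). The other gained or lost regions also lay mostly away from promoters. The share this near to a protein-coding TSS was 18.2% for the 527 regions gained with TGFβ and kept in at least 1 siPHF13+TGFβ list. It was 18.8% for the 1456 regions lost with depletion and present in a siControl list. Intervals cover counting error over regions only.

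**Figure D2:**
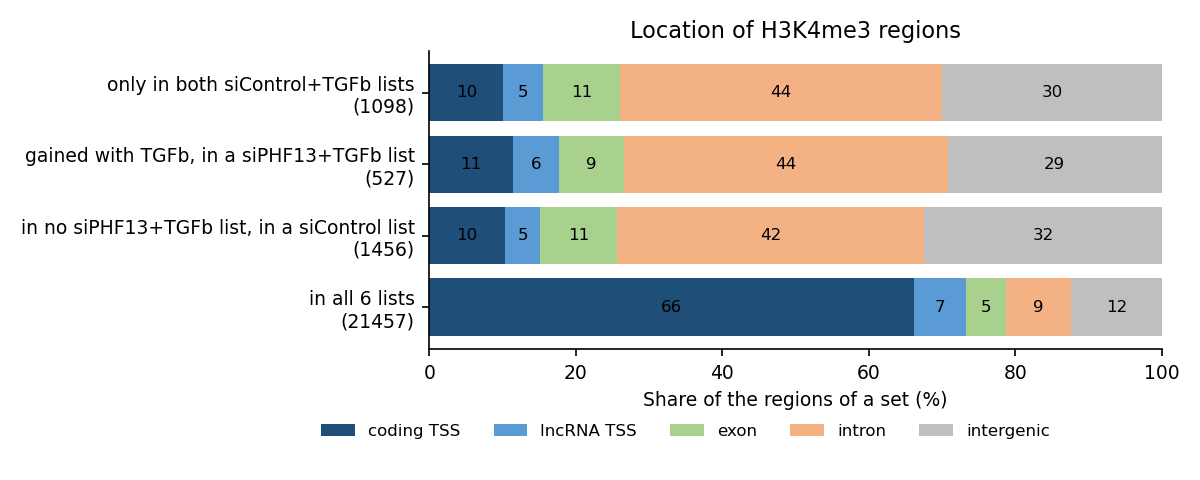
Location of H3K4me3 regions as stacked shares (in %) for 4 sets, with the number of regions in parentheses. A region within 1 kb of a TSS is counted there first, then as exon, intron or intergenic. At a protein-coding TSS were 10.1% of the 1098 regions and 66.2% of the regions in all 6 lists.

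TGFβ-only regions were also poorer in GC and CpG. Their median GC content was 47.4% against 51.4% in all other regions and 55.6% in regions of all 6 lists. The ratio of observed to expected CpG was over 0.6, a common limit for CpG islands, in 84 of them (7.65%) and in 36.7% of all other regions. In the 527 gained and kept regions it was 7.97%.

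TGFβ-only regions were spread over 851 protein-coding genes when each was given to the nearest TSS within 100 kb, and no gene had more than 3. The genes with 3 were PRKCE, LIMS1, USP12, ZNF608 and BMERB1. The PRKCE regions lay in its introns, 29960 to 67221 bp from a TSS, and H3K4me3 peaks covered 224 and 435 bp of the region at chr2:45908774-45909238 in siControl+TGFβ replicates 1 and 2. The region at chr2:46191760-46191993 was covered over 186 and 200 bp, and that at chr2:46295262-46295663 over 301 and 187 bp. The mean H3K4me3 percentiles of the 3 regions were low, at 14.3, 7.57 and 17.2. H3K27ac was present in 2 of these 3 regions, in siControl+TGFβ replicate 1 alone.

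Around USP12, which encodes a deubiquitinase, the 3 regions lay 29664 to 71958 bp from a TSS and differed in acetylation. The farthest one, at chr13:27597466-27597885, had H3K27ac in 5 of 6 lists, all but siPHF13+TGFβ replicate 1. The region at chr13:27699507-27700152 had it in both siControl+TGFβ lists, over 631 and 171 bp, and in siPHF13+TGFβ replicate 2, over 416 bp. The third region was covered over 64 bp in siControl+TGFβ replicate 1 alone. At ZNF608, a zinc finger gene, 1 of 3 intronic regions had H3K27ac, in siControl replicate 2, both siControl+TGFβ lists and siPHF13+TGFβ replicate 2. The mean H3K4me3 percentiles of these 3 regions were 10.7 to 21.7.

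The strongest TGFβ-only regions included narrow ones. The highest rank was held by an intergenic region of 165 bp at chr10:18421900-18422064, with −log10 q values of 41.5 and 25.4 in siControl+TGFβ replicates 1 and 2. No filter for repeats, mappability or copy number was applied to any region here, so whether these shaped the ranks was not tested. Among those of highest rank was an intronic region of 1152 bp at chr1:16992062-16993213, with −log10 q values of 24.5 and 25.1 in siControl+TGFβ replicates 1 and 2, which lay 96 bp from a region present in all 6 lists. A region of 215 bp, 302 bp from a TSS of ZFP36, had −log10 q values of 26.3 and 20.7 but fold enrichments over input of 1.5 and 1.53. ZFP36 encodes an RNA-binding protein that promotes decay of cytokine mRNAs. That region lay 317 bp from a region present in all 6 lists, and a lncRNA TSS region of 165 bp near LINC00910 lay 786 bp from one. Over all TGFβ-only regions, 123 (11.2%) lay within 1 kb of a region present in all 6 lists, against 10.6% of all other regions. Those at MELTF and TIMP1 lay 169 and 129 bp from such a region, and those at ETV4 and ITGB1 31675 and 140871 bp.

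By the mean bp covered in both siControl+TGFβ lists, the largest TGFβ-only region lay at chr8:128821682-128823363, in an intron of the lncRNA gene PVT1, 71691 bp from a TSS of MYC, with 1237 and 1048 bp in siControl+TGFβ replicates 1 and 2. This region had H3K27ac in 5 of 6 lists, with 1065 and 1537 bp covered in the siControl lists, 1682 and 1662 bp with TGFβ and 1682 bp in siPHF13+TGFβ replicate 2. A region at the TSS of RAC2, a small GTPase of blood cells, was covered over 1019 and 828 bp. A region in WWC1, whose product KIBRA acts in the Hippo pathway, was covered over 1011 and 1078 bp. At HHAT, which palmitoylates Hedgehog proteins, the cover was 1257 and 918 bp.

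A protein-coding TSS lay within 1 kb of 111 TGFβ-only regions. The highest ranks among these were at ZFP36, MELTF, COA1, CCDC153, RINL, SEZ6, TRAF2, ETV4, DRC7 and NIBAN1. The region at the TSS of ETV4, which encodes an ETS factor induced by RAS signalling (chr17:41656178-41657067), was covered over 766 and 829 bp in siControl+TGFβ replicates 1 and 2. It had H3K27ac over 890 and 692 bp in the siControl+TGFβ lists and 845 bp in siPHF13+TGFβ replicate 2, and in neither siControl list. At TRAF2, an adaptor of TNF receptor signalling, H3K4me3 covered 672 and 699 bp. At COA1 it covered 799 and 947 bp. The region at SEZ6 was covered by H3K27me3 over its whole 1062 bp in all 6 lists and had no H3K27ac.

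Genes of chosen lists were then examined, counting a gene where a TGFβ-only region lay within 5 kb of its TSS or inside it. Of all 20136 protein-coding genes, 640 (3.18%) were counted, and the lists are read against that share as a description. A region lay inside 543 genes and within 5 kb of a TSS of 261. A longer gene has more room for a region, and gene length was not taken into account, so a share above 3.18% is not read as a property of a list. Among 20 transcription factors of epithelial-to-mesenchymal transition, FOXC2 and SOX9 were counted. The region near FOXC2, a forkhead factor, lay 2442 bp from its TSS and was covered by H3K4me3 over 295 and 264 bp, with no H3K27ac in any list. The region in an exon of SOX9, a factor of ductal and progenitor cells, was covered over 208 and 396 bp and had H3K27ac in siControl+TGFβ replicate 1 alone. It lay 1151 bp from a region with H3K4me3 in all 6 lists, and the FOXC2 region 3754 bp. SOX9 was also the 1 gene counted among 12 genes that the study used as examples, a list chosen on these samples, and among 15 ductal markers.

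Among 43 TGFβ pathway components 3 genes were counted, TGFBR2, SMAD3 and LTBP1, and among 24 direct TGFβ-SMAD targets 2, ID1 and NUAK1. TGFBR2 is the type II receptor, SMAD3 the factor it activates through the type I receptor, and LTBP1 holds latent TGFβ in the matrix. NUAK1, an AMPK-related kinase, had 2 regions. The one 26 bp from a TSS was covered by H3K4me3 over 899 and 297 bp and had H3K27ac in both siControl+TGFβ lists and in siPHF13+TGFβ replicate 2. The one 1989 bp from a TSS was covered over 462 and 325 bp and had no H3K27ac in any list. The first lay 52347 bp from a region with H3K4me3 in all 6 lists, and the second 344 bp.

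Among 22 AP-1 genes 3 were counted (13.6%), FOSL1, JUN and MAFK. JUN, the central AP-1 subunit, had a region 1427 bp from its TSS, which lay 276 bp from a region with H3K4me3 in all 6 lists. H3K4me3 covered the JUN region over 311 and 297 bp, with fold enrichments over input of 2.11 and 1.99. H3K27ac covered it over 370 and 365 bp in siControl+TGFβ and over 293 bp in siPHF13+TGFβ replicate 2, and in no other list. Among 24 YAP-TEAD genes 2 were counted, WWTR1 and WWC1. WWTR1 encodes the coactivator TAZ, and its region 379 bp from a TSS was covered by H3K4me3 over 529 and 241 bp, with H3K27ac in all 6 lists. It lay 440 bp from a region with H3K4me3 in all 6 lists.

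Among 39 RAS-MAPK genes and feedback regulators 6 were counted (15.4%), EGFR, SPRY2, SPRY4, DUSP5, DUSP10 and ETV4. SPRY and DUSP genes encode inhibitors that the pathway induces. The intronic region of EGFR, the epidermal growth factor receptor, was covered by H3K4me3 over 510 and 408 bp and had H3K27ac in all lists but siPHF13+TGFβ replicate 1. Among 45 axon guidance genes 6 were counted (13.3%), ROBO4, SEMA3C, SEMA3D, PLXND1, EPHA2 and EFNA5. EPHA2, an ephrin receptor, had a region 1097 bp from its TSS that was covered over 437 and 240 bp, with no H3K27ac in any list. It lay 1112 bp from a region with H3K4me3 in all 6 lists, and the EGFR region 53002 bp.

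Among 31 integrin and laminin genes 4 were counted (12.9%), ITGB1, ITGB2, LAMA2 and LAMB1. The ITGB1 region lay 292 bp from the TSS of the divergent lncRNA ITGB1-DT and was covered by H3K4me3 over 699 and 351 bp, with H3K27ac in 5 of 6 lists. Among 45 collagen and matrix genes 1 was counted, COL13A1, a transmembrane collagen, and among 39 matrix proteases and inhibitors 3, MMP16, ADAM12 and TIMP1. The region in LPP, which encodes a focal adhesion protein, was covered over 329 and 293 bp and had H3K27ac in both siControl+TGFβ lists, in siPHF13+TGFβ replicate 2 and in neither siControl list. None of 32 epithelial junction genes was counted, with 0 regions.

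Of 46 WNT and Notch genes 3 were counted, TCF7, TCF7L1 and HES1, and of 35 cytokine and NF-κB genes 2, IL6R and CSF2. Of 37 genes of H3K4 and Polycomb machinery 3 were counted, SETD1B, CBX8 and PCGF1. The SETD1B region, which lay 461 bp from a TSS of the neighbouring RHOF, had H3K27ac in all 6 lists, and that near PCGF1, a Polycomb subunit, had it in none. They lay 1908 bp (SETD1B) and 368 bp (PCGF1) from a region with H3K4me3 in all 6 lists. Of 15 acinar and endocrine markers 1 was counted, CELA3A, whose region lay in an intron of CELA3B. Of 14 immune, endothelial and neural markers 0 were counted.

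**Figure D3:**
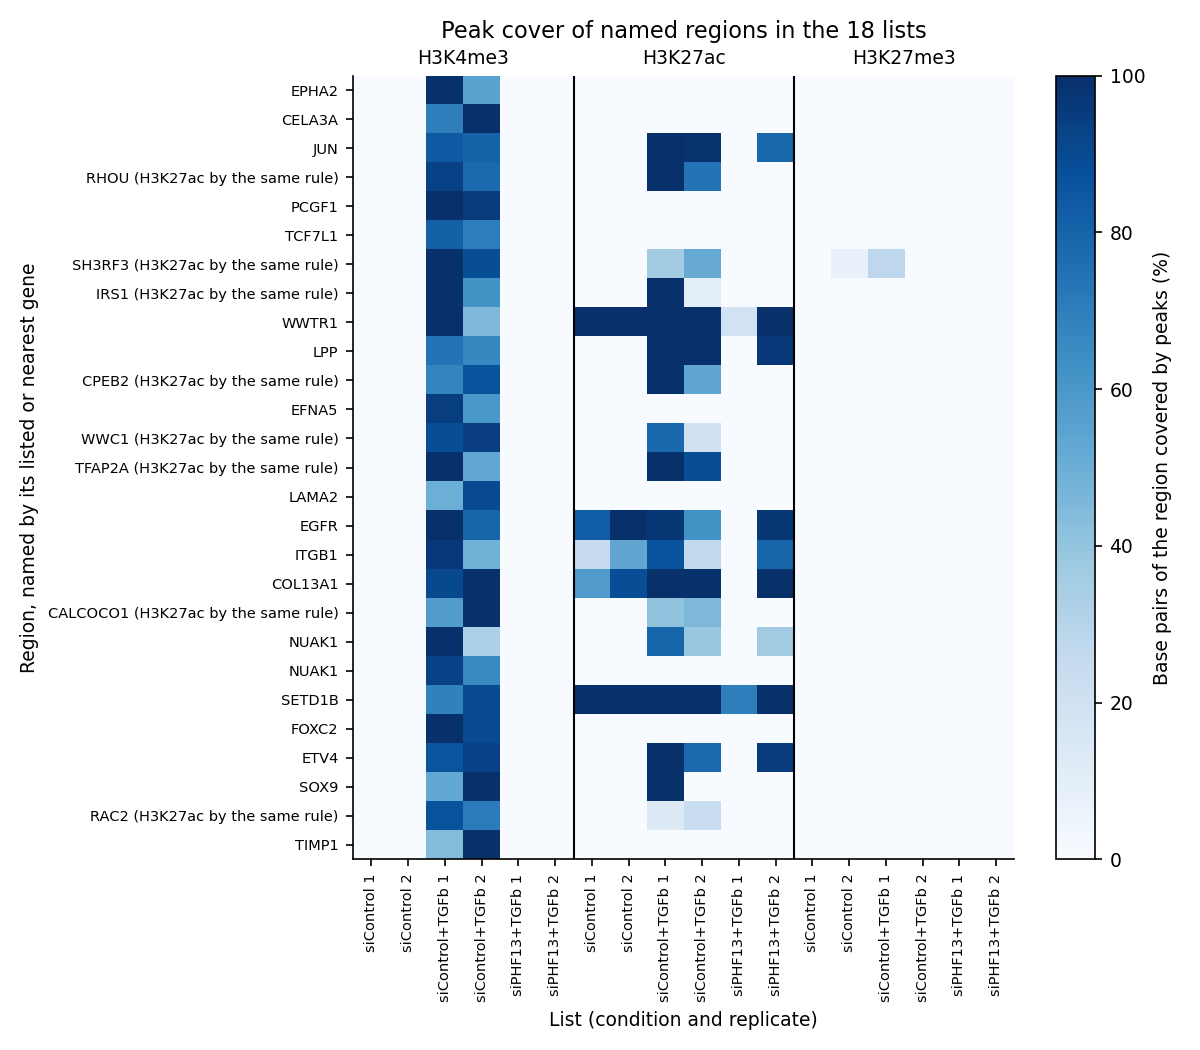
Share of each named region covered by peaks (colour, 0 to 100%) in the 18 lists, with the 6 lists of each mark side by side, for regions tied to genes of the lists and regions whose H3K27ac followed the same rule. H3K4me3 fills siControl+TGFβ lists alone, by the rule. H3K27ac is seen in all 6 lists at WWTR1 and SETD1B, in siControl+TGFβ and siPHF13+TGFβ replicate 2 at JUN, LPP and ETV4, and in none at FOXC2 and EPHA2.

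H3K27ac peaks were not used to choose the regions, and their shares were compared between groups. Input libraries were made for each group and replicate and not for each mark, so H3K4me3 and H3K27ac peaks may share an input. Whether that affects the shares was not tested. In siControl, 13.0% and 24.1% of the TGFβ-only regions had an H3K27ac peak in replicates 1 and 2. With TGFβ after siControl, 50.8% and 31.5% had one, and with TGFβ after siPHF13, 3.19% and 38.0%. The siControl+TGFβ libraries thus lay above both siControl libraries, while the siPHF13+TGFβ libraries held the lowest and the second highest share. The mean was 18.6 ± 7.86% in siControl and 41.2 ± 13.7% in siControl+TGFβ (SD, n = 2), a difference of 22.6 percentage points. Permuting the 2 against 2 libraries (exact, two-sided) gave p = 0.333, the smallest p this design allows.

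The siPHF13+TGFβ mean was 20.6 ± 24.6%. Its difference from siControl+TGFβ was −20.6 percentage points, smaller than the spread between its replicates (exact two-sided permutation test, p = 0.667). Without siPHF13+TGFβ replicate 1 the difference was −3.19 percentage points, and without replicate 2 of that group −38.0. With the H3K27ac lists cut to the length of the shortest, the difference with TGFβ was 1.78 percentage points. The difference with depletion was then −1.41 percentage points.

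All other H3K4me3 regions were measured in the same way. Their shares with an H3K27ac peak were 33.6% and 43.9% for the siControl libraries, 57.4% and 44.7% for siControl+TGFβ and 11.6% and 54.3% for siPHF13+TGFβ. The share was lower among TGFβ-only regions in all 6 lists. As a ratio to the share of other regions it was 0.387 and 0.550 for siControl, 0.886 and 0.704 for siControl+TGFβ and 0.274 and 0.699 for the siPHF13+TGFβ libraries. The siControl+TGFβ ratios thus lay above those of both other groups, but replicate 2 of siPHF13+TGFβ was close (0.699 against 0.704). The lowest ratio, 0.274, came from the short list of siPHF13+TGFβ replicate 1. On average the siControl+TGFβ ratios exceeded siControl by 0.326 and siPHF13+TGFβ by 0.308, each with p = 0.333 by the exact permutation test. The difference in percentage points from other regions did not order the groups in this way, as siPHF13+TGFβ minus siControl+TGFβ was −2.485 points (p = 0.667, same exact test). Of the 527 gained and kept regions, 58.1 ± 11.54% had H3K27ac in siControl+TGFβ (SD, n = 2). The mean of this set was 34.0 ± 10.7% in siControl and 34.0 ± 38.4% in siPHF13+TGFβ. Its differences with TGFβ and with depletion were 24.1 and −24.1 percentage points, against 22.6 and −20.6 in TGFβ-only regions. A difference of this size was thus not particular to TGFβ-only regions.

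**Figure D4:**
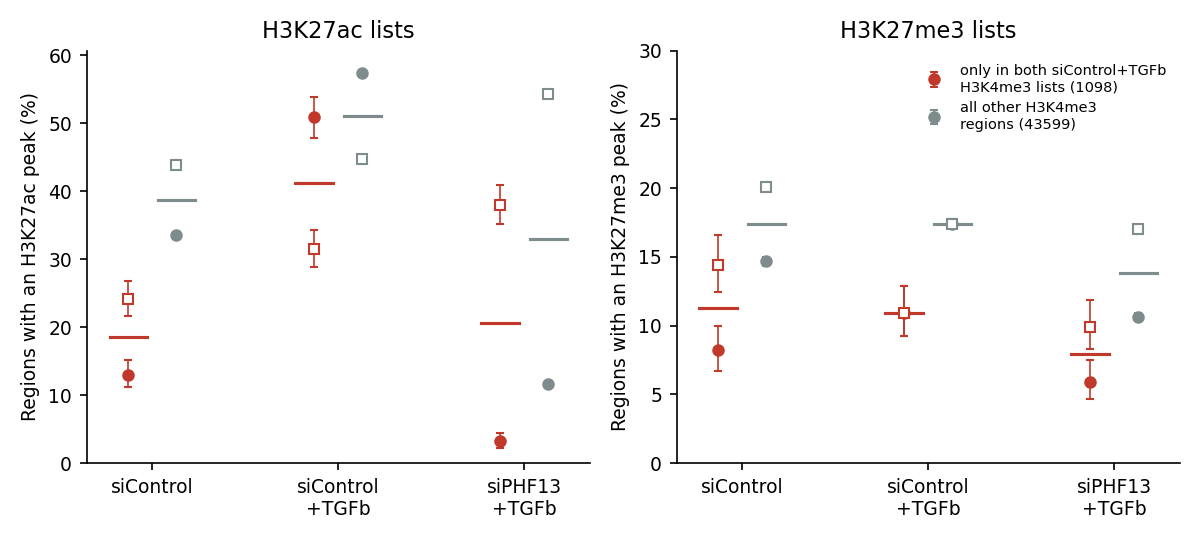
Share of regions (in %) with an H3K27ac peak (left) or an H3K27me3 peak (right) in each library, for the 1098 regions and for all 43599 other H3K4me3 regions. Filled circles are replicate 1, open squares replicate 2, horizontal lines group means and bars 95% Wilson intervals over regions. The 1098 regions have H3K27ac shares of 50.8% and 31.5% for siControl+TGFβ and of 3.19% and 38.0% for siPHF13+TGFβ.

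Over single regions, 579 of the 1098 had H3K27ac in at least 1 list and 519 (47.3%) in none, against 39.6% of all other regions in none. Both siControl+TGFβ lists held a peak in 339 (30.9%), against 44.2% of all other regions. Of the 339, 304 (27.7% of the 1098) had one in siPHF13+TGFβ replicate 2 too, against 43.3% of all other regions. H3K27ac was gained with TGFβ, present in both siControl+TGFβ lists and neither siControl list, in 117 TGFβ-only regions (10.7%, 95% Wilson interval 8.97 to 12.6%), against 4.55% of all regions. Of the 527 gained and kept regions 11.01% did so. The share among TGFβ-only regions was 1.09% with H3K27ac lists of equal length. Without siControl+TGFβ replicate 2 it was 26.2%, and without siControl replicate 2 it was 19.0%.

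H3K27ac was lost with depletion, present in both siControl+TGFβ lists and neither siPHF13+TGFβ list, in 35 TGFβ-only regions (3.19%), against 0.967% of all regions. In 31 (2.82%, 95% Wilson interval 1.996 to 3.98%) H3K27ac followed the rule of H3K4me3, being in both siControl+TGFβ lists and none of the other 4, against 0.814% of all regions. The most similar sets were also above all regions. Lost with depletion and following the rule were 1.52% and 1.52% of the 527 gained and kept regions (interval 0.771 to 2.97% for each). These shares were 2.34% and 1.79% of the 1456 regions lost with depletion and present in a siControl list. They were 1.92% and 1.62% of the 1667 regions just outside the rule. The count of TGFβ-only regions following the rule was also 31 without the short list of siPHF13+TGFβ replicate 1. It was 115 without siPHF13+TGFβ replicate 2 and 141 without siControl+TGFβ replicate 2. With H3K27ac lists of equal length it was 7.

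The highest H3K4me3 ranks among these 31 regions were found near SH3RF3, RAC2, WWC1, RHOU, CALCOCO1, TFAP2A, CPEB2 and IRS1. At the RAC2 TSS, H3K27ac covered 150 and 270 bp in siControl+TGFβ replicates 1 and 2. In the WWC1 intron, 4863 bp from a TSS, it covered 903 and 228 bp. An intergenic region 228943 bp from RHOU, which encodes a small GTPase, was covered over 264 and 195 bp. A region 48992 bp from TFAP2A, which encodes the factor AP-2α, was covered over 517 and 457 bp. In a region 321319 bp from IRS1, an adaptor of the insulin receptor, the cover was 397 and 40 bp. The other regions of these 8, apart from WWC1 and RAC2, lay 48992 to 321319 bp away from any protein-coding TSS.

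H3K27me3 was found in few TGFβ-only regions and did not separate siControl from siControl+TGFβ. The share with an H3K27me3 peak was 8.20% and 14.4% for siControl, 10.9% for each siControl+TGFβ library and 5.92% and 9.93% for siPHF13+TGFβ. The siControl+TGFβ lists held 120 regions each, of which 96 were the same. The mean difference of siControl+TGFβ from siControl was −0.364 percentage points, less than the spread between the siControl replicates (exact two-sided permutation test, p = 1). Both siPHF13+TGFβ libraries lay below siControl+TGFβ, with a mean difference of −3.005 percentage points (exact permutation test, p = 0.333). The mean share of all other regions was 17.4% with siControl+TGFβ against 13.8% with siPHF13+TGFβ, a difference of the same sign. The H3K27me3 list of siPHF13+TGFβ replicate 1 was the shortest, and without it the difference in TGFβ-only regions was −1.002 percentage points. Without siPHF13+TGFβ replicate 2 it was −5.01, and with H3K27me3 lists of equal length −1.91.

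H3K27me3 was gained with TGFβ in 2 TGFβ-only regions, against 0.298% of all regions, and lost with TGFβ in 3, against 0.385%. It was gained with depletion in 2, against 0.0694%, and lost with depletion in 10 (0.911%), against 0.879%. No list held H3K27me3 in 911 of them (83.0%), and all 6 lists held it in 42 (3.83%), against 9.24% of all other regions. The 42 included the region at SEZ6, a brain gene, and a region 2287 bp from a TSS of NPAS4, a neuronal activity factor, which had H3K27me3 over 769 to 785 bp of its 785 bp. Both marks together, counting either siControl+TGFβ list, were found in 12 TGFβ-only regions (1.09%), against 5.26% of all other regions. Neither mark was found in 401 (36.5%), against 27.8%.

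AP-1 motifs were found more often around the summits of TGFβ-only regions than around those of other regions. Of 1096 windows of 200 bp with complete sequence, 127 (11.6%) held TGANTCA, against 7.12% of the windows of all other regions and 3.92% of those in all 6 lists. Both strands were searched. In the 527 gained and kept regions the share was 13.5%, and in the 1667 regions just outside the rule 11.2%. More than 5 kb from a protein-coding TSS it was 11.6% against 9.83%, and within 5 kb 11.5% against 3.70%. In windows with a GC content under 45% it was 13.1% against 10.3%, at 45 to 55% GC 14.4% against 9.14% and at higher GC 5.38% against 3.56%.

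The TEAD letters GGAATG were held by 13.3% of TGFβ-only windows against 11.5% of others, and the SMAD letters GTCTG by 38.1% against 34.2%. The letters CACCTG, bound by ZEB and SNAI factors, were in 14.0% against 16.4%. The RUNX letters TGTGGT were in 10.8% against 10.1%, the forkhead letters TGTTTAC in 4.02% against 3.11% and the NF-Y letters CCAAT in 21.9% against 19.0%. Letters typical of CpG-rich promoters were less frequent, with GGGCGG (SP and KLF factors) in 9.76% against 18.6% and CCGGAA (ETS factors) in 3.29% against 5.30%. A match is a description of the sequence and not evidence of binding.

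**Figure D5:**
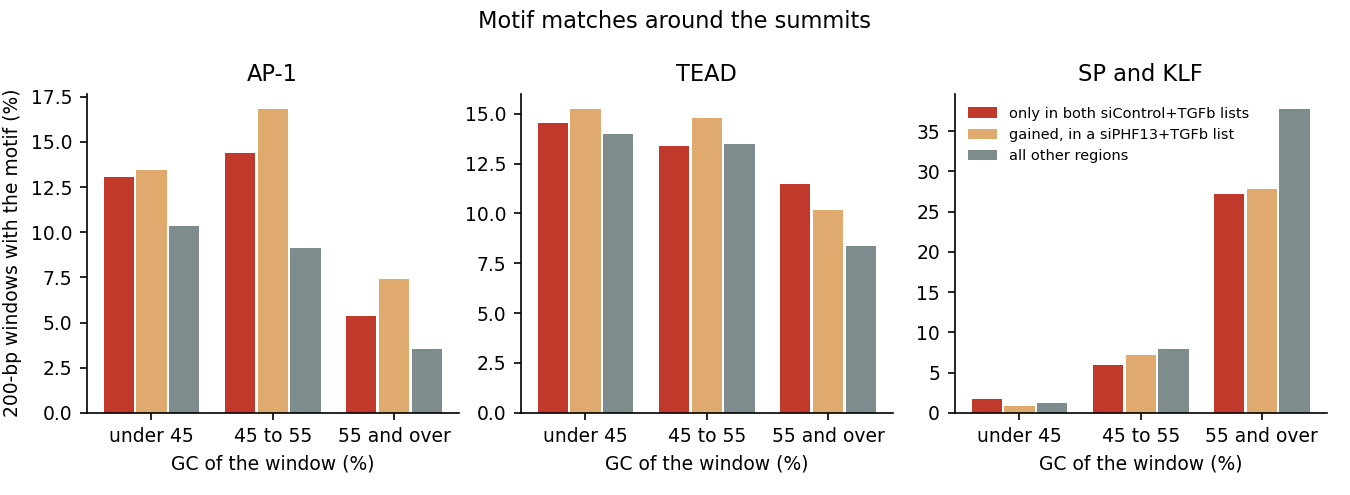
Share of 200-bp summit windows (in %) that hold the AP-1, TEAD or SP and KLF letters, by GC content of the window, for the 1098 regions, the 527 regions gained with TGFβ and kept in a siPHF13+TGFβ list and all other regions. The vertical axes start at 0 and differ between panels. AP-1 shares of the 1098 regions lie above those of all other regions at each GC level, as do those of the 527.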

How the data were processed

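The authors sequenced histone ChIP libraries of PANC-1 cells. Per the submitters' processing notes and the study's methods, the authors trimmed reads with Trim Galore 0.4.1, aligned them to hg19 with Bowtie2 2.4.1, removed duplicates with Picard and called peaks per library against input with MACS2 2.2.7.1. The deposited lists give, for each peak, a fold enrichment (a ratio over input), the −log10 of the q-value and, for narrow peaks, a summit. The lowest deposited −log10 q for H3K4me3 was 1.30, so peaks at 3 or more were an alternative. A longer list covers more of the genome, so every share depends on list length.

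Here, peaks that overlapped or touched were merged and a list had a region if it covered 1 bp of it (NumPy 2.4.6, SciPy 1.17.1, Python 3.11.15, merging and rule tested on simulated intervals). Genes were those of GENCODE release 44 on GRCh37. H3K27ac and H3K27me3 shares were compared by an exact two-sided permutation test over libraries. The regions and gene lists were chosen with earlier results of these data known. The text names regions by highest rank, widest cover, TSS, H3K27ac or H3K27me3 pattern, gene list and number per gene. Replicate numbers, other peak thresholds, list lengths, overlaps and left-out libraries were tried as alternatives. Some results and sequences are not reported here.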

Additional observations from a re-analysis of the deposited data

How the results depend on the processing

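Direction and side of the threshold did not change for the H3K27ac difference between siControl+TGFβ and siControl, the H3K27ac difference between siPHF13+TGFβ and siControl+TGFβ, and the H3K27me3 difference between siPHF13+TGFβ and siControl+TGFβ under any alternative run, but no p could pass 0.05 in this design. Leaving out libraries, they ranged from 12.9 to 32.2, from −38.0 to −3.19 and from −5.01 to −1.002 percentage points. The H3K27me3 difference between siControl+TGFβ and siControl ranged from −3.46 to 2.73 and turned positive without H3K27me3 siControl replicate 2, at 0.287 without H3K4me3 siControl+TGFβ replicate 2, at 0.0853 with the strongest 50% of each H3K4me3 list, at 0.943 with H3K4me3 lists of equal length and at 0.273 with H3K27me3 lists of equal length. The number of regions was 586 with the strongest 50% of each H3K4me3 list and 318 with H3K4me3 lists of equal length. It ranged from 1126 to 4874 with a library left out of the rule, which asks for less, and was 2205 without siControl replicate 2, 2947 without siControl+TGFβ replicate 1 and 4874 without siControl+TGFβ replicate 2. The share within 5 kb of a protein-coding TSS was 31.6% with the strongest 50% of each H3K4me3 list and 15.9% with peaks up to 500 bp apart merged, and 19.8 to 22.7% with libraries left out.

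The share with gained H3K27ac was 4.44% with the strongest 50% of each H3K4me3 list, 1.09% with H3K27ac lists of equal length, 6.01% with the strongest 50% of each H3K27ac list and 8.38% where H3K27ac had to cover 50% of a region. The share whose H3K27ac followed the rule of H3K4me3 was 0.683% with the strongest 50% of each H3K4me3 list, 0.638% with H3K27ac lists of equal length and 1.91% where H3K27ac had to cover 50% of a region. With libraries left out these shares ranged from 7.51 to 26.2% and from 1.87 to 12.8%. The second was 12.8% without H3K27ac siControl+TGFβ replicate 2 and 10.5% without siPHF13+TGFβ replicate 2. Leaving H3K27ac libraries out of these counts was chosen after seeing the data. The cause was not tested.

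The replicate numbers were not treated as pairing the libraries, since not every pair of groups correlated positively. Over all regions, same-numbered replicate differences of siControl and siControl+TGFβ correlated at −0.111 for H3K27ac and −0.0234 for H3K27me3, and those of siControl+TGFβ and siPHF13+TGFβ at −0.176 and 0.0392. For H3K4me3 these values were −0.0564 and −0.0269. Those of siControl and siPHF13+TGFβ correlated at 0.183 for H3K4me3, 0.3 for H3K27ac and 0.245 for H3K27me3. With a replicate block the 4 mean differences were the same, at 22.6, −20.6, −0.364 and −3.005 percentage points, with exact sign-flip p-values of 0.5, 1, 1 and 0.5, where 0.5 is the smallest possible. With the crossed pairing for H3K27ac, chosen after seeing the data, 0 of 2 comparisons passed 0.05.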

Other observations

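TGFβ-only regions lay on all 24 chromosomes. They were 1.12% of the merged regions on chromosome 22 and 3.27% on chromosome 15, the lowest and highest shares. Per megabase they were densest on chromosome 19, with 0.981, and 17, with 0.702. As shares of the merged regions there they were 2.399% and 2.455%, no higher than the 2.46% over all chromosomes. Of the 1098 regions, 56 lay within 10 kb of another.

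Among the 1667 regions with a peak in exactly 1 further list, the highest mean percentiles were 85.4 for a region of 220 bp at chr15:36380946-36381165, 72.4 for one of 198 bp at chr19:39749676-39749873, 9163 bp from a TSS of IFNL2, and 67.9 for one of 523 bp in an intron of NFATC1. The region on chromosome 15 had H3K27ac in both siControl+TGFβ lists and in siPHF13+TGFβ replicate 2, and in neither siControl list.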
